A study of Homo sapiens with 32 samples.

Results

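The genes described here encode the enzymes of cholesterol and fatty acid synthesis and the proteins that control them, measured by RNA-seq in HCT116 cells, a human colorectal carcinoma line. The 32 members were taken from the 60660 gene IDs of the count table as a list of named symbols: 5 regulators, 7 genes of the mevalonate stage, 11 of the sterol stage, 1 cholesterol transfer gene and 8 genes of fatty acid synthesis. The list names symbols and sets no threshold on expression, and it was drawn up with earlier results of these data known. All 32 were found and passed the filter on low counts in every comparison below.

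All cells carried a doxycycline-inducible OsTIR1, a plant auxin receptor subunit (genotype Tet-OsTIR1-PURO), and the knockout lines were single-cell clones made with CRISPR/Cas9. The parental cells were 2 samples. IGF2BP3 KO was represented by clones E4 and A3, made with 1 guide, and D12, made with another, and IGF2BP2 KO by clones F6 and B7, which share a guide, and G6. IGF2BP2 and IGF2BP3 are RNA-binding proteins that act on the stability and translation of mRNAs. Each line or sample had 2 libraries with DMSO, the solvent, and 2 with tunicamycin, an inhibitor of N-glycosylation that causes endoplasmic reticulum stress, which gives 4 parental and 6 libraries of each knockout per treatment and 32 in all. Tunicamycin was given at 5 µg/mL for 4 h to parental and IGF2BP3 KO cells. For IGF2BP2 KO cells the dose and time are not given in the sources used here. The study asked how these proteins shape RNA during the unfolded protein response.

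Library totals were 16651438 to 24913021 counts. IGF2BP3 mRNA was 76.5 ± 5.38 CPM (counts scaled to library size; SD, n = 4) in parental cells with DMSO and 27.5 ± 10.7 CPM (n = 6) in IGF2BP3 KO cells, and IGF2BP2 mRNA was 176 ± 15.6 CPM (n = 4) against 86.5 ± 4.80 CPM (n = 6) in IGF2BP2 KO cells. These are mRNA levels, which a knockout need not remove. All 7 stress genes checked rose with tunicamycin. The DMSO-titled libraries of clone G6 carry a tunicamycin entry in another label. They had 985 and 834 CPM of HSPA5, an endoplasmic reticulum chaperone, which lies within the 775 to 1090 CPM of the DMSO libraries, and were kept with DMSO. The epithelial markers EPCAM, CDH1, KRT8 and KRT18 were present, VIL1 and CDX1 averaged under 0.1 CPM, and so did 6 markers of blood, vessel, stromal and liver cells. Replicate number behaved as a batch: 53.4% of all genes differed between replicates 2 and 1. Nothing in the labels says whether a replicate is a separate culture, so p-values measure the spread between these libraries, which may be technical.

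Cholesterol is built from acetyl-CoA through mevalonate, the isoprenoid farnesyl diphosphate, squalene and lanosterol, and fatty acids are built from the same precursor, elongated and desaturated. SREBF1 and SREBF2 encode the sterol regulatory element-binding proteins, transcription factors made as precursors in the endoplasmic reticulum membrane. SCAP escorts them to the Golgi for cleavage when sterols are scarce, and INSIG1 and INSIG2 hold SCAP back when sterols are plentiful. The cleaved factors act at sterol regulatory elements in promoters, usually together with NF-Y, which binds CCAAT boxes, and with Sp1 at GC boxes.

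Promoter sequence was at hand for 28 of the 32 members, as the 250 bases before RefSeq transcript starts (GRCh38.p14). SQLE, ACAT2, FDFT1 and FASN had none in the table. A CCAAT box (CCAAT, either strand) was present in 20 of the 28 genes, 71.4%, and in 37% of all 27305 genes with a window. A gene can have several windows and was counted once. The 27305 include genes that were not tested for expression here, whereas all members were tested, so the shares also compare unlike sets of genes. The GC box GGGCGG was found in 27 of the 28 members and in 46.2% of all genes. The sterol regulatory element letters TCACNCCA were found in MSMO1, MVK and SREBF2, 10.7% of the members, against 3.92% of all genes. The endoplasmic reticulum stress element (ERSE), whose letters include a CCAAT box, and the amino acid response letters TGATGNAAN were found in none of the 28 and in 0.0916% and 3.87% of all genes. The windows of the 3 genes that rose most with tunicamycin and of SREBF2 are shown 5′ to 3′, with CCAAT boxes (CCAAT or its complement ATTGG) and TCACNCCA in capitals. A match describes the letters only.
STARD4 (chr5:111512536-111512785, minus strand): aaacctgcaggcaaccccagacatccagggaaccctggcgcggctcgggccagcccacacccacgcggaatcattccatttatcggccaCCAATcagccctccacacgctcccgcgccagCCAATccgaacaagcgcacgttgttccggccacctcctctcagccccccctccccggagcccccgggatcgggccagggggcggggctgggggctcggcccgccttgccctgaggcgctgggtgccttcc
MSMO1 (chr4:165327419-165327668, plus strand): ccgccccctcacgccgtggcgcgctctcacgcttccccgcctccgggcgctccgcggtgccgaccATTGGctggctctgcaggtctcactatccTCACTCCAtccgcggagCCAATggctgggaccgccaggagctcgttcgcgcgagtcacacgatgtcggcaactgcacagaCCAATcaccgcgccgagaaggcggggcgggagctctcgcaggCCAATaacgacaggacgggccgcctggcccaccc
HSD17B7 (chr1:162790452-162790701, plus strand): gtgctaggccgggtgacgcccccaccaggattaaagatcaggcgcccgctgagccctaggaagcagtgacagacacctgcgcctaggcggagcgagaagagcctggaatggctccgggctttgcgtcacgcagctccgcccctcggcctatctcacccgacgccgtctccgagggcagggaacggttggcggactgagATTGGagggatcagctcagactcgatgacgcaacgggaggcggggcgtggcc
SREBF2 (chr22:41832855-41833104, plus strand): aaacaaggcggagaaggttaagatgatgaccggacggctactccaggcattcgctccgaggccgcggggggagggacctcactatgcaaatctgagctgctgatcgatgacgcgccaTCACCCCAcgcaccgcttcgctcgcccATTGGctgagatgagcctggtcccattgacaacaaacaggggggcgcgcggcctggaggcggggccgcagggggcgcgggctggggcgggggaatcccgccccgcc
MSMO1 and SREBF2 hold the sterol element letters beside a CCAAT box, while the STARD4 and HSD17B7 windows hold CCAAT boxes and none of the sterol element letters.

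Tunicamycin was followed by a rise of most of these genes, led by the cholesterol transfer gene STARD4 and by MSMO1 and HSD17B7 of the sterol stage, which rose 3.64-, 2.12- and 1.97-fold over all lines. In edgeR's quasi-likelihood test with line and treatment as terms, 25 of the 32 members passed the threshold (Benjamini-Hochberg adjusted p under 0.05 over all genes tested): 18 were higher and 7 lower. Of all 15622 genes tested 53.5% passed, 25% higher and 28.4% lower, so the members' share passed either way, 78.1%, stands beside a high background, and their share passed upward was 56.2%. The members' median log2 fold change was 0.12 and that of all genes was -0.01. Most changes were small: STARD4 and MSMO1 were the 2 members with an absolute log2 fold change over 1, against 4.02% of all genes.

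**Figure D1:**
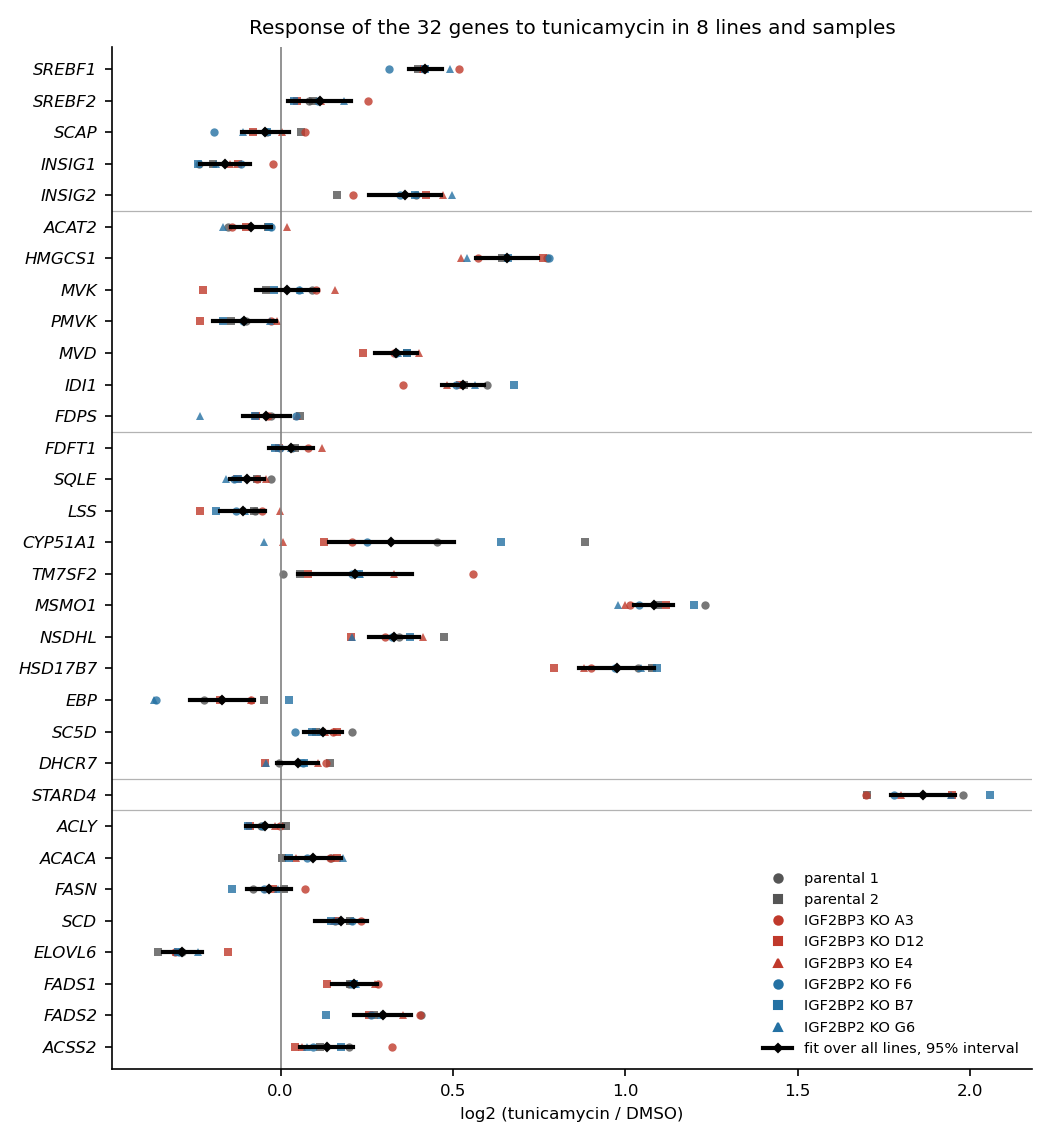
Response of each of the 32 genes to tunicamycin, as log2 (tunicamycin / DMSO), in each of the 8 lines or samples (mean of the replicate ratios; coloured symbols), with the fitted effect over all lines and its 95% interval (black). STARD4, MSMO1, HSD17B7, HMGCS1 and IDI1 lie to the right of 0 in all 8, and ELOVL6 lies to the left of 0 in all 8.

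Among the regulators, SREBF1 rose and its partner genes moved less or the other way. With DMSO SREBF1 was between 131 and 187 CPM with a median of 162, and with tunicamycin between 175 and 241 CPM with a median of 222 (16 libraries each). In parental cells its 4 libraries read 168, 166, 180 and 175 CPM with DMSO and 221, 223, 241 and 226 CPM with tunicamycin. In these bulk libraries more RNA per cell and more cells with the RNA cannot be told apart. The treatments did not overlap in parental cells, and over all lines 14 of 16 tunicamycin libraries lay above the highest DMSO library. It rose by 0.42 ± 0.023 on the log2 scale (standard error; adjusted p = 6e-16) and was higher in 16 of 16 pairs of same-numbered libraries.

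SREBF2, the regulator most tied to cholesterol genes, rose by far less. Its median was 195 CPM with DMSO (range 162 to 225) and 212 CPM with tunicamycin (183 to 251), and the ranges overlapped widely. Its change was 0.11 ± 0.044 (adjusted p = 0.0318, edgeR), and the call was lost without clone A3 or without clone E4 (largest adjusted p = 0.0618). SREBF2 was also lower in replicate 2 than in replicate 1, by more than it rose with tunicamycin (log2 -0.20 ± 0.019).

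INSIG1, a classic SREBP target that retains SCAP, fell. It was 23.4, 25.9, 25.2 and 25.5 CPM in parental cells with DMSO and 19.3, 22.6, 20.9 and 23.3 CPM with tunicamycin, so every treated parental library was below every untreated one. Over all lines the ranges overlapped (21.0 to 29.1 and 19.3 to 26.0 CPM), and 15 of 16 pairs were lower. The fitted change was -0.16 ± 0.035 (adjusted p = 0.00027). Its paralog INSIG2 rose by 0.36 ± 0.051 (adjusted p = 4.28e-07), in 15 of 16 pairs. SCAP did not pass the test over all lines (log2 -0.04, 95% interval -0.11 to 0.03).

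**Figure D2:**
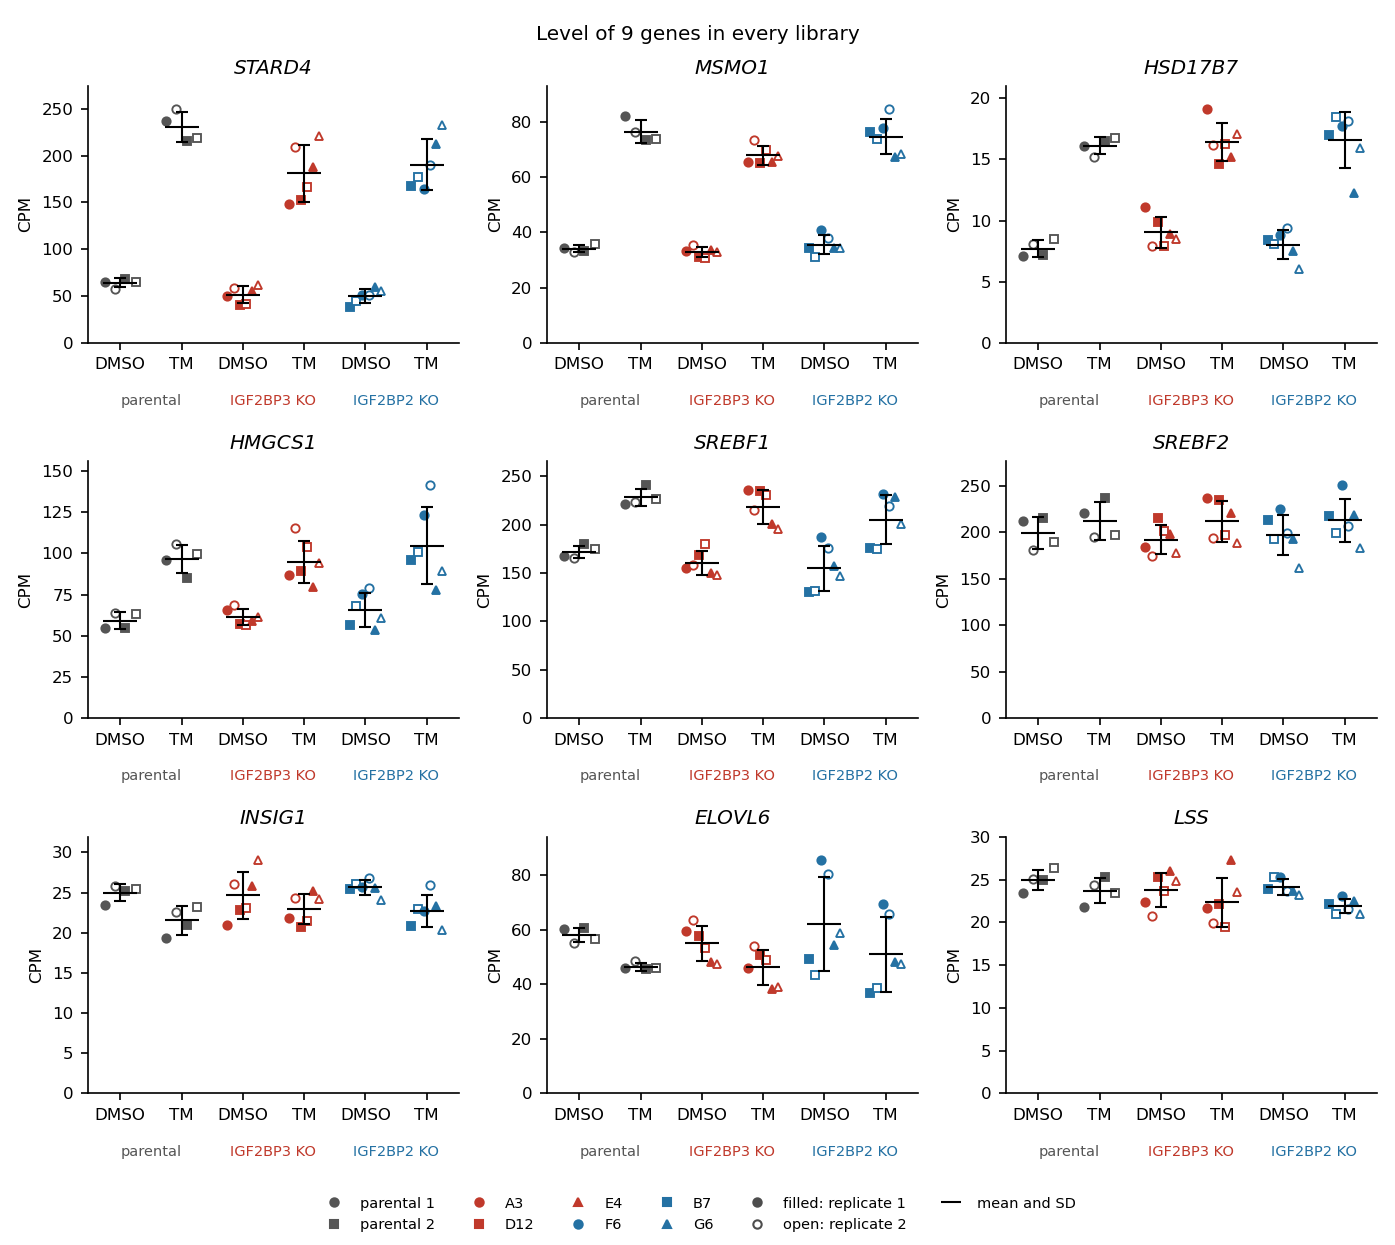
CPM of 9 genes in every library (y axis, from 0), by genotype and treatment (DMSO or tunicamycin, TM); symbols mark the line or clone, filled symbols replicate 1 and open symbols replicate 2, and bars the mean and SD of 4 or 6 libraries. Over all lines the treated libraries of STARD4, MSMO1 and HSD17B7 all lie above the untreated ones, whereas those of SREBF2, INSIG1 and LSS overlap them. Within a genotype, those of INSIG1 in parental cells and of LSS in IGF2BP2 KO cells all lie below the untreated ones.

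In the mevalonate stage 5 of 7 genes passed, 71.4% against 53.5% of all genes. Of these 3 were higher and 2 lower, and the share of the stage that was lower, 28.6%, was near the 28.4% of all genes. HMGCS1, which makes HMG-CoA, was 54.4, 63.6, 54.9 and 63.3 CPM in parental cells with DMSO and 95.9, 106, 85.0 and 99.7 CPM with tunicamycin. Over all lines it went from a median of 61.1 CPM (53.5 to 78.9) to 95.9 CPM (77.5 to 142), and 15 of 16 treated libraries were above the highest untreated one. HMGCS1 rose by 0.66 ± 0.044 (adjusted p = 4.62e-14). IDI1, which interconverts the isoprenoid building blocks, rose by 0.53 ± 0.030, and its 16 treated libraries (64.3 to 84.8 CPM) did not overlap the untreated ones (48.3 to 58.0 CPM). MVD, the decarboxylase before it, rose by 0.34 ± 0.030. The kinase gene PMVK had a log2 fold change of -0.11 and the thiolase gene ACAT2 of -0.09, and both fell by the test, though PMVK lost its call in 8 of 15 alternatives and ACAT2 in 4. For PMVK these included leaving out either parental sample, D12, B7 or F6. MVK and FDPS did not pass (log2 0.02 and -0.04). In ACAT2 52.3% of exon bases are shared with exons of genes on the other strand, and FDPS has 8 pseudogenes by name in GENCODE 29, so their counts are less certain.

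In the sterol stage 9 of 11 genes passed, 81.8% against 53.5% of all genes. Of these 6 were higher and 3 lower, and the share of the stage that was lower, 27.3%, was near the 28.4% of all genes. The genes from squalene to lanosterol did not rise: FDFT1, squalene synthase, did not pass (log2 0.03), and SQLE, squalene epoxidase, and LSS, which closes the rings, fell by 0.10 and 0.11 on the log2 scale. LSS was 23.5, 25.1, 25.01 and 26.3 CPM in parental cells with DMSO and 21.8, 24.4, 25.3 and 23.4 CPM with tunicamycin, and these overlapped. Over all lines LSS went from a median of 24.4 to 22.2 CPM (adjusted p = 0.00386), lower in 14 of 16 pairs. SQLE was lower in 16 of 16 pairs. With the libraries of replicate number 1 alone neither SQLE nor LSS passed (largest adjusted p = 0.0517 and 0.185).

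After lanosterol most genes rose. MSMO1, NSDHL and HSD17B7 encode the enzymes that together remove the methyl groups at carbon 4 of the sterol ring, and all 3 rose. They were singled out as a group after their values were seen. MSMO1 (chr4:165327623-165343160, GRCh38) was 34.4, 33.0, 33.2 and 35.7 CPM in parental cells with DMSO and 82.2, 76.3, 73.4 and 73.8 CPM with tunicamycin. Its 16 treated libraries spanned 65.0 to 84.5 CPM and its 16 untreated ones 30.8 to 40.9 CPM, with no overlap. Its log2 fold change was 1.082 ± 0.028 (adjusted p = 1.27e-24), and the lines ranged from 0.98 to 1.23.

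HSD17B7 (chr1:162790702-162812817), a keto-reductase, was 7.10, 8.07, 7.16 and 8.53 CPM in parental cells with DMSO and 16.1, 15.2, 16.5 and 16.7 CPM with tunicamycin. Over all lines it also separated completely, 6.01 to 11.1 CPM against 12.2 to 19.1 CPM. HSD17B7 rose by 0.98 ± 0.053 on the log2 scale (adjusted p = 3.24e-16). The annotation lists 2 pseudogenes of HSD17B7, whose reads could be shared with it. NSDHL, the dehydrogenase, rose less, by 0.33 ± 0.036 (adjusted p = 2.98e-09), in 16 of 16 pairs.

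Of the remaining sterol genes, EBP, the sterol isomerase, fell. It was 14.5, 14.7, 12.7 and 14.7 CPM in parental cells with DMSO and 12.9, 12.1, 12.3 and 14.3 CPM with tunicamycin, which overlapped, and over all lines its median went from 14.4 to 12.8 CPM (log2 -0.17 ± 0.046, adjusted p = 0.00242). With replicate number 1 alone EBP did not pass (adjusted p = 0.307). SC5D, a desaturase of the last steps, rose by 0.12 and TM7SF2, a sterol reductase, by 0.22, the latter not passing without clone A3, without clone E4 or in replicate number 2 alone. DHCR7, the final reductase, did not pass (log2 0.05, 95% interval -0.01 to 0.11). CYP51A1, lanosterol demethylase, rose by 0.32 ± 0.089 on counts of only 56 to 122 per library. In GENCODE 29 79.4% of its exon bases are shared with other genes on the same strand.

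STARD4 encodes a carrier that moves cholesterol between membranes, and it had the largest rise of the members. In parental cells it was 65.5, 57.9, 68.7 and 64.8 CPM with DMSO and 237, 249, 215 and 219 CPM with tunicamycin. Over all lines it spanned 38.3 to 68.7 CPM with DMSO and 148 to 249 CPM with tunicamycin, so the lowest treated library was above the highest untreated one. This was a log2 fold change of 1.86 ± 0.046 (adjusted p = 5.17e-25), with lines between 1.70 and 2.06. STARD4 lies at chr5:111496033-111512590. STARD4, MSMO1, HSD17B7 and IDI1 were the 4 members whose treated libraries all exceeded all untreated ones, and 0 members had them all below. The share of all genes that separated in this way was not counted, so this count has no background beside it.

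In fatty acid synthesis 6 of 8 genes passed, 75% against 53.5% of all genes. Of these 5 were higher and 1 lower, and the rises included all 3 desaturases. ACLY, which supplies acetyl-CoA, and FASN, the synthase, did not pass (log2 -0.05 and -0.03), and ACACA, the carboxylase, rose by 0.10. Its call was lost in 5 of 15 alternatives, among them leaving out parental sample 1, A3, D12 or G6. The desaturase genes SCD, FADS1 and FADS2 rose by 0.18, 0.21 and 0.30, each in 16 of 16 pairs, and ACSS2, an acetyl-CoA synthetase, rose by 0.13, though it did not pass in replicate number 2 alone (adjusted p = 0.0542). FADS1 and FADS2 overlap each other on opposite strands over 4.79% and 4.44% of their exon bases.

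ELOVL6, which elongates saturated chains, went the other way. It was 60.1, 55.1, 60.5 and 56.5 CPM in parental cells with DMSO and 45.8, 48.6, 45.5 and 45.9 CPM with tunicamycin, with no overlap. Over all lines its range moved from 43.5 to 85.6 CPM to 36.8 to 69.6 CPM, which overlap. Within lines it was lower in 16 of 16 pairs, and the log2 fold change was -0.28 ± 0.028 (adjusted p = 3.11e-10).

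Fitted alone, each genotype gave calls for STARD4, MSMO1, HSD17B7, HMGCS1, IDI1, MVD, NSDHL, SREBF1, FADS1 and FADS2 as higher and for ELOVL6 as lower. In parental cells 12 of 32 members passed, 11 higher and 1 lower, against 25.9% of all genes (12.1% higher and 13.8% lower). In IGF2BP3 KO cells 15 passed, 14 higher and 1 lower, against 32% of all genes (15.3% and 16.8%). In IGF2BP2 KO cells 18 passed, 12 higher and 6 lower, against 38.2% of all genes (18.2% and 20.1%). The parental fit has 8 libraries and the knockout fits 12 each. STARD4 rose by 1.84 ± 0.074 in parental, 1.82 ± 0.085 in IGF2BP3 KO and 1.93 ± 0.059 in IGF2BP2 KO cells. MSMO1 rose by 1.16 ± 0.056, 1.04 ± 0.048 and 1.075 ± 0.047, and ELOVL6 changed by -0.32 ± 0.058, -0.26 ± 0.051 and -0.28 ± 0.043. The 6 falls called in IGF2BP2 KO cells were ELOVL6, EBP, INSIG1, LSS, SQLE and SCAP. FADS1 lost its call in parental cells without any 1 pair of same-numbered libraries, 1 with DMSO and 1 with tunicamycin. It also lost it in IGF2BP3 KO cells without E4, and FADS2 lost its call in IGF2BP2 KO cells without F6 or G6. Without clone G6, whose DMSO labels conflict, 11 members passed in IGF2BP2 KO cells, 34.4%, near the 30.1% of all genes. Of the 6 falls only ELOVL6 kept its call in all 11 alternatives.

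The difference in response between genotypes was then tested as an interaction. By edgeR's quasi-likelihood test no member, and 0% of all genes, passed for IGF2BP3 KO against parental or for IGF2BP2 KO against parental. At an unadjusted p under 0.05 there were 1 member of 257 genes for IGF2BP3 KO and 0 members of 219 genes for IGF2BP2 KO, and DESeq2 called 0 members in each. The 257 and 219 genes were 1.65% and 1.41% of all genes, a smaller share than a threshold of 0.05 gives when no response differs. The main fits held no replicate term. With a replicate block the shares were 3.4% and 3.51%, and 0 members passed. The main test was thus strict, and a lack of calls does not show equal responses. The STARD4 response differed from parental by -0.01 in IGF2BP3 KO cells (log2, 95% interval -0.27 to 0.25) and by 0.10 in IGF2BP2 KO cells (-0.11 to 0.30). The MSMO1 response differed by -0.11 (-0.26 to 0.03) and -0.08 (-0.24 to 0.07), and that of HSD17B7 by -0.20 (-0.48 to 0.07) and -0.01 (-0.26 to 0.23). Differences of a size within these intervals remain compatible with these libraries.

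CYP51A1 had the lowest unadjusted p of the members in the IGF2BP3 KO interaction. It was 3.63, 3.68, 2.64 and 2.93 CPM in parental cells with DMSO and 5.32, 4.80, 4.66 and 5.82 CPM with tunicamycin, with no overlap. In IGF2BP3 KO cells it was 3.03 to 4.43 CPM (median 3.63) and 3.25 to 4.86 CPM (median 3.95), and these overlapped. The interaction was -0.56 (95% interval -0.92 to -0.20, edgeR's adjusted p = 1.00) and is not called. For IGF2BP2 KO the member with the lowest p was SCAP (interaction -0.12, 95% interval -0.26 to 0.02). SCAP was 71.0, 69.3, 69.3 and 69.0 CPM in parental cells with DMSO and 67.8, 68.7, 76.3 and 67.9 CPM with tunicamycin, and in IGF2BP2 KO cells 70.1 to 80.3 CPM (median 74.8) and 65.6 to 71.8 CPM (median 69.8). A test across all 8 lines and samples called no member's response and 0% of all genes. At an unadjusted p under 0.05 there were 0 members and 134 of 16274 genes, and DESeq2 called 0 members. The main fit of this test also held no replicate term.

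Levels in the knockouts were compared with parental cells within each treatment. These fits held no line term, so the 2 libraries of a clone counted as separate replicates of its genotype. Few members differed, and TM7SF2 had the lowest p, in IGF2BP3 KO cells with DMSO. TM7SF2 (chr11:65111845-65116384) was 15.9, 12.5, 15.8 and 14.4 CPM in parental cells and 7.53 to 10.2 CPM (median 8.71) in the 6 IGF2BP3 KO libraries. The groups did not overlap. In IGF2BP2 KO cells with DMSO clones B7 and G6 were also below the parental mean, at 11.2 and 9.43 CPM and at 12.9 and 9.08 CPM, while F6 was at 18.8 and 13.2 CPM, and TM7SF2 was not called there. In IGF2BP3 KO cells the log2 fold change was -0.74 ± 0.1004 (adjusted p = 0.00251), and the call held in all 14 alternatives (-0.83 to -0.65). Beside it, FADS1 was 87.2, 83.2, 95.3 and 88.2 CPM in parental cells and 66.7 to 81.6 CPM (median 75.5) in IGF2BP3 KO cells, again without overlap. Its log2 fold change was -0.25 ± 0.060 with an adjusted p of 0.0499 by edgeR. The FADS1 call was lost in 8 of 14 alternatives, among them leaving out clone A3, clone E4 or any 1 parental library. It was also lost with libraries summed per line, where 0.284% of all genes passed. These 2 of 32 members, both lower, stand against 1.61% of all genes called, 0.515% higher and 1.1% lower.

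With tunicamycin the same comparison called 0 members and 0.718% of all genes (0.116% higher and 0.602% lower) by edgeR, with 7 members at an unadjusted p under 0.05, where 10.3% of all genes were, and 0 called by DESeq2. With a replicate block FADS1 was called (adjusted p = 0.0322), and with all 32 libraries in 1 fit STARD4 and MSMO1 were (adjusted p = 0.0104 and 0.0455), each lower, when 2.23% and 3.21% of all genes passed. In the fit of all 32 libraries differences between clones do not enter the p-values. FADS1 had the lowest p of the members in the main fit. It was 104, 91.5, 116 and 95.8 CPM in parental and 75.5 to 98.9 CPM (median 86.4) in IGF2BP3 KO cells, which overlapped (log2 -0.22 ± 0.073, adjusted p = 0.266). TM7SF2 was 17.03, 11.8, 20.3 and 12.1 CPM in parental and 6.81 to 14.9 CPM (median 11.0) in IGF2BP3 KO cells, overlapping (log2 -0.43 ± 0.199, adjusted p = 0.486). The parental values of TM7SF2 split by replicate number, with 17.03 and 20.3 CPM in replicate 1 and 11.8 and 12.1 CPM in replicate 2. Over all lines TM7SF2 was lower in replicate 2 by 0.30 ± 0.057 on the log2 scale. With a replicate term in the fit TM7SF2 kept its DMSO call in IGF2BP3 KO cells.

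**Figure D3:**
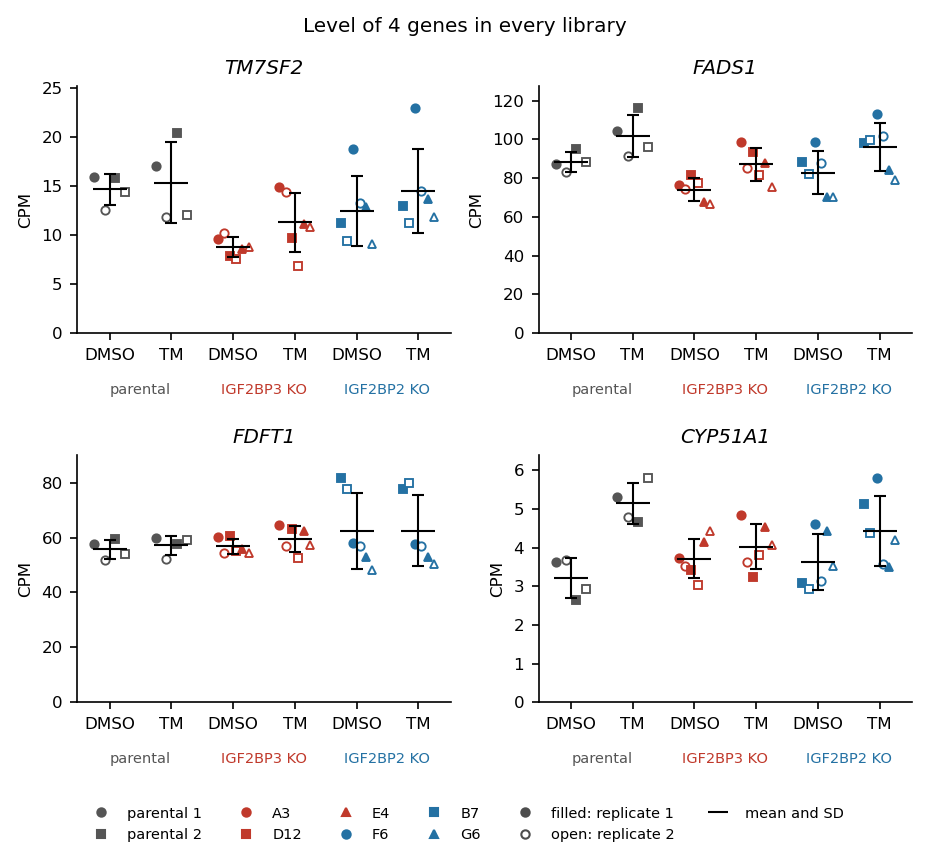
CPM of TM7SF2, FADS1, FDFT1 and CYP51A1 in every library (y axis, from 0), with symbols for lines and fill for replicate number, and bars for the mean and SD of 4 or 6 libraries. TM7SF2 with DMSO is below 11 CPM in all 6 IGF2BP3 KO libraries and above 12 CPM in all 4 parental ones, and FDFT1 is highest in clone B7.

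In IGF2BP2 KO cells no member passed against parental cells in either treatment, where 0.0137% of all genes passed with DMSO and 0.00694% with tunicamycin, all of these lower. At an unadjusted p under 0.05 there were 2 members in each treatment, 6.25%, against 4.74% of all genes with DMSO and 6.97% with tunicamycin, and DESeq2 called 0 members in each. STARD4 had the lowest p in both. With DMSO it was 65.5, 57.9, 68.7 and 64.8 CPM in parental and 38.3 to 59.7 CPM (median 51.4) in IGF2BP2 KO cells, overlapping in part (log2 -0.36 ± 0.105, adjusted p = 0.983). With tunicamycin it was 237, 249, 215 and 219 CPM in parental and 164 to 232 CPM (median 183) in IGF2BP2 KO cells (log2 -0.27 ± 0.097, adjusted p = 0.695). In IGF2BP3 KO cells the STARD4 differences were -0.32 ± 0.108 with DMSO and -0.34 ± 0.115 with tunicamycin, neither called. With all 32 libraries in 1 fit STARD4 was called as lower with DMSO in both knockouts (adjusted p = 0.0209 in IGF2BP3 KO and 0.0216 in IGF2BP2 KO). That fit called 3.2% and 1.04% of all genes. It measures against the spread between libraries of 1 line, so differences between clones do not enter its p-values. STARD4 itself differed among the clones of each knockout (edgeR's adjusted p = 0.049 in IGF2BP3 KO and 0.00115 in IGF2BP2 KO). Both knockouts are set against the same parental libraries.

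Clones of 1 genotype also differed from each other. Among the 3 IGF2BP2 KO clones 17 of 32 members differed in level, 53.1%, against 24.6% of all genes, and among the 3 IGF2BP3 KO clones 5 did, 15.6%, against 7.05% of all genes. With 2 libraries per clone and treatment these tests compare clones, not genotypes. Leaving out F6 or B7 left 9 genes in the IGF2BP2 KO test, 28.1% against 11.4% and 10.6% of all genes. Leaving out G6 left 11 of 32, a count for which the share of all genes is not given here.

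In IGF2BP2 KO cells ELOVL6 had the lowest p (adjusted p = 1.13e-07). With DMSO it was 85.6 and 80.5 CPM in F6, 49.2 and 43.5 CPM in B7 and 54.4 and 58.6 CPM in G6. With tunicamycin it was 69.6 and 65.8 CPM in F6, 36.8 and 38.5 CPM in B7 and 48.2 and 47.4 CPM in G6. Clone F6 was above the others in each treatment, and the response to tunicamycin was log2 -0.30 in F6, -0.30 in B7 and -0.24 in G6. F6 was also above the parental mean with DMSO for INSIG2 (log2 0.50), HMGCS1 (0.38) and SCD (0.28).

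FDFT1 had the next lowest p (adjusted p = 3.69e-07), and there clone B7 stood apart. It was 81.9 and 77.5 CPM in B7, 58.0 and 56.8 CPM in F6 and 52.9 and 48.1 CPM in G6 with DMSO. With tunicamycin it was 77.8 and 79.9 CPM in B7, 57.8 and 56.9 CPM in F6 and 52.9 and 50.2 CPM in G6. F6 and B7 were made with the same guide, so this difference lay between clones of 1 guide.

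In IGF2BP3 KO cells the 5 genes were ELOVL6, TM7SF2, SREBF1, MVK and STARD4. ELOVL6 (adjusted p = 0.00433) was lowest in E4, at 48.2 and 47.4 CPM with DMSO, against 59.6 and 63.6 CPM in A3 and 57.7 and 53.4 CPM in D12. TM7SF2 (adjusted p = 0.013) was 9.57 and 10.2 CPM in A3, 8.62 and 8.81 CPM in E4 and 7.84 and 7.53 CPM in D12. With tunicamycin it was 14.9 and 14.4 CPM in A3, 11.1 and 10.8 CPM in E4 and 9.69 and 6.81 CPM in D12. MVK, mevalonate kinase, was highest in E4, with log2 0.46 over the parental mean with DMSO. The count of 5 fell to 0 without clone E4, where 1.34% of all genes passed. Without clone D12 it fell to 1, 3.12%, near the 3.24% of all genes. With a replicate block it rose to 11, 34.4% against 13.7% of all genes.

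**Figure D4:**
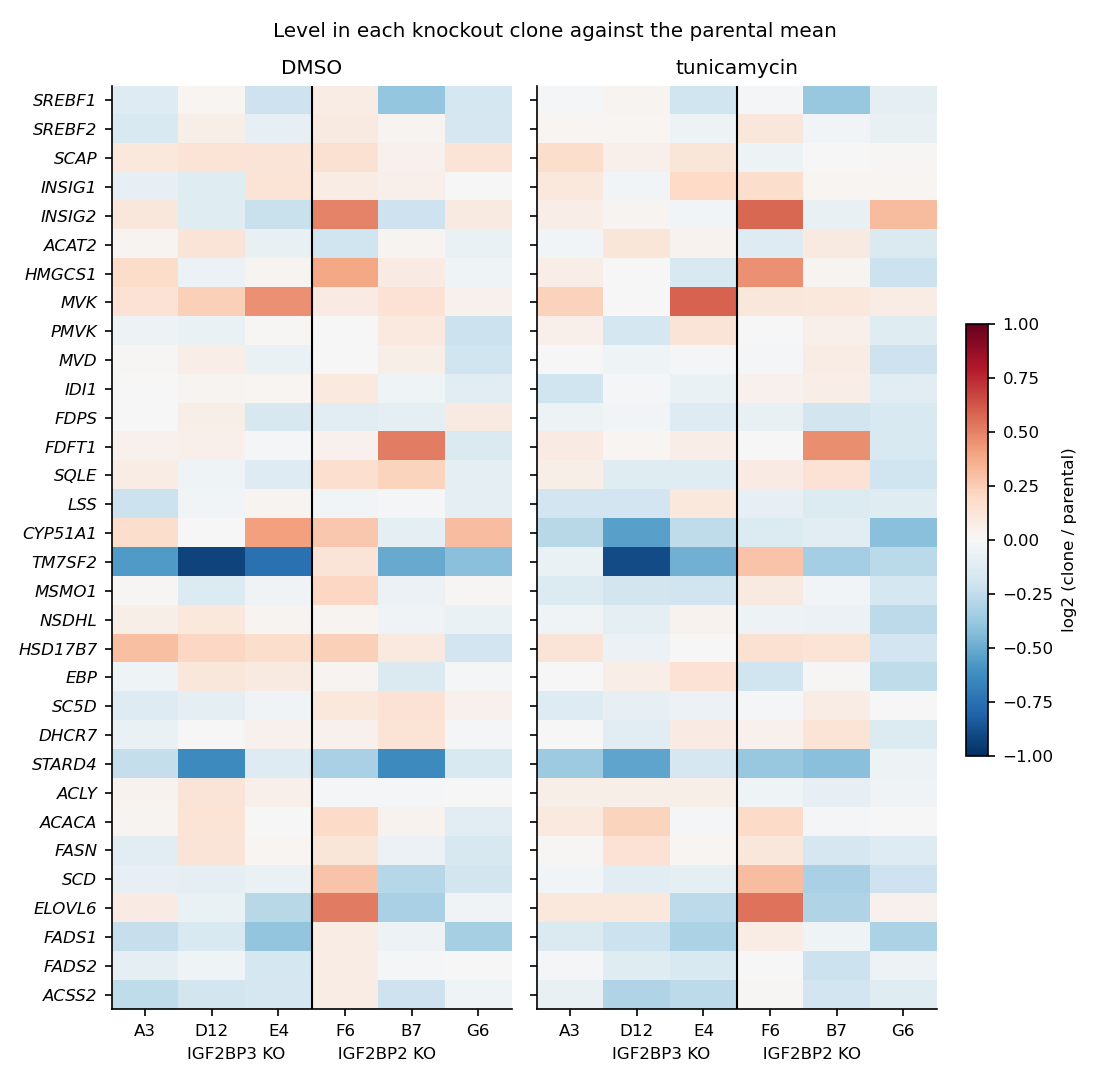
Heat map of log2 (clone mean / parental mean) for the 32 genes (rows) in 6 knockout clones (columns), with DMSO on the left and tunicamycin on the right; red is above parental, blue below, on a scale from -1 to 1. TM7SF2 is below parental in all 3 IGF2BP3 KO clones with DMSO (-0.56 to -0.93), and clone F6 is red for ELOVL6, INSIG2 and HMGCS1.

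Members also differed by replicate number, at a share near that of all genes. Replicate 2 against replicate 1 called 19 of 32 members, 59.4%, against 53.4% of all genes. Of these 6 were higher and 13 lower, 18.8% and 40.6% of members against 24% and 29.4% of all genes. ACACA and HMGCS1 were each 0.18 higher in replicate 2 on the log2 scale, and TM7SF2, SREBF2 and PMVK were lower by 0.30, 0.20 and 0.17. The tunicamycin response of the leading genes was present in each replicate number. The mean of the 8 ratios was 1.80 in replicate 1 and 1.93 in replicate 2 for STARD4, 1.06 and 1.11 for MSMO1, 0.90 and 1.05 for HSD17B7, and -0.32 and -0.24 for ELOVL6. In separate fits 20 members passed in replicate number 1, 62.5%, against 46.4% of all genes, and 25 in replicate number 2, 78.1%, against 56.7%.

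**Figure D5:**
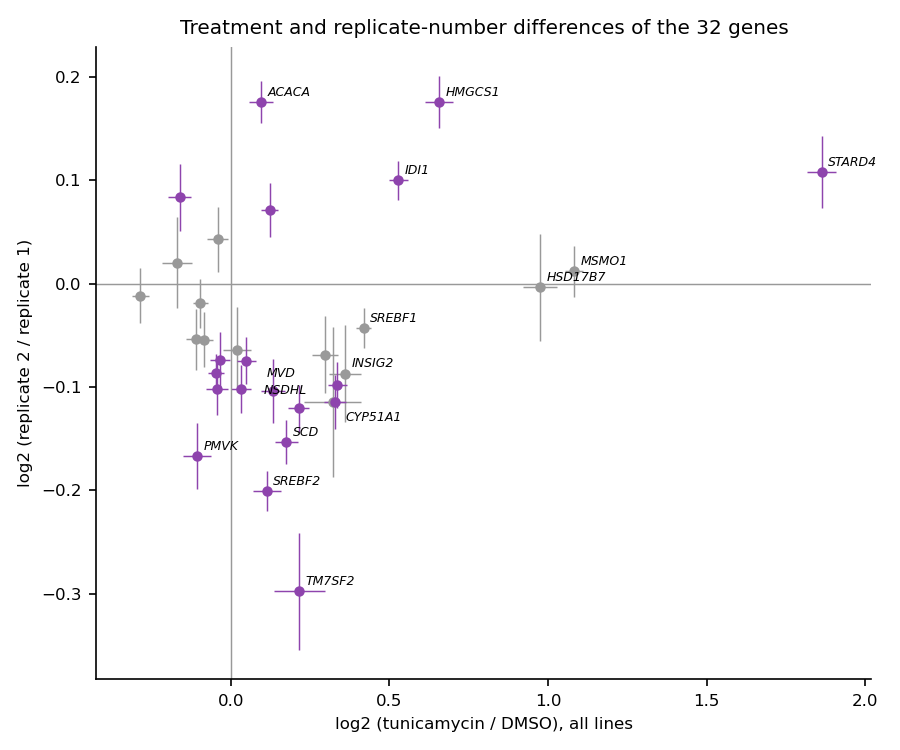
Fitted log2 (tunicamycin / DMSO) over all lines (x axis) against fitted log2 (replicate 2 / replicate 1) (y axis) for the 32 genes, with SE bars; purple marks genes called for replicate number. The y axis spans -0.30 to 0.18, and STARD4, MSMO1 and HSD17B7 lie far to the right, with replicate differences of at most 0.11.

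Genes linked to the same pathway, from lists kept apart from the members, moved in mixed directions with tunicamycin over all lines. Of 11 further SREBP targets all 11 passed, 6 higher and 5 lower, against the same 53.5% of all genes. NPC1, which exports cholesterol from lysosomes, rose by 0.62 ± 0.032, and its treated and untreated libraries did not overlap. LPIN1, a phosphatidate phosphatase, rose by 0.53 and AACS, which activates acetoacetate, by 0.31. SLC25A1, the citrate carrier, GPAM, an acyltransferase, and PNPLA3 fell by 0.27, 0.26 and 0.39.

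Of 12 genes for SREBP processing and its cofactors, 5 passed, 41.7% against 53.5% of all genes. NFYC and NFYB, subunits of NF-Y, rose by 0.30 and 0.10, and NFYA did not pass. RNF139, a ubiquitin ligase, rose by 0.26, RNF145, another, fell by 0.39, and SPRING1, needed for SREBP cleavage, fell by 0.20. The protease genes MBTPS1 and MBTPS2 did not pass (log2 0.05 and 0.03).

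Of 7 targets or members of the liver X receptor system, which answers to excess sterol, 5 passed, 71.4% against 53.5% of all genes, with 4 higher and 1 lower. The cholesterol exporters ABCA1 and ABCG1 rose by 0.73 and 0.61 from low levels (0.877 and 0.488 CPM with DMSO), and MYLIP, a ligase for lipoprotein receptors, fell by 0.81. In the isoprenoid branch 4 of 11 passed, 36.4% against 53.5% of all genes. NUS1 and DHDDS, the subunits of the enzyme that makes the dolichol chain for N-glycosylation, rose by 0.45 ± 0.022 and 0.15 ± 0.028, and ICMT, a methyltransferase of prenylated proteins, fell by 0.43.

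Of 13 genes of fatty acid oxidation 7 passed, 4 higher and 3 lower, 53.8% against 53.5% of all genes, so the share was near the background. CPT1A, CPT2 and SLC25A20, which carry fatty acids into mitochondria, fell by 0.24, 0.15 and 0.29, and ETFDH rose by 0.33. Of 13 glycerolipid genes 11 passed, 84.6% against 53.5% of all genes, with 3 higher and 8 lower. GPAT3 rose by 0.64 ± 0.026 without overlap, and DGAT2, which makes triglyceride, fell by 2.92 ± 0.163 from 2.17 to 0.282 CPM. Among these further lists ME1, malic enzyme, was the single gene that passed in a knockout against parental cells, higher by 0.19 ± 0.041 in IGF2BP3 KO with DMSO (adjusted p = 0.0317).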

How the data were processed

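Poly(A) RNA of 32 HCT116 libraries was sequenced, and the authors deposited raw read counts per gene. STAR 2.7.5c and hg38 are named in the submitters' processing notes. The library kit keeps strand, per the labels' protocols; the counting tool, its strand setting and the annotation are not given in the sources used here. Of 60660 IDs, 60419 were matched to a symbol and 22333 had no count in any library. The members and lists were chosen with earlier results of these data known.

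Counts were tested with edgeR 4.0.16 in R 4.3.3 (TMM, filterByExpr, quasi-likelihood test, Benjamini-Hochberg adjustment over all genes tested, threshold 0.05). Tunicamycin fits held line and treatment, within the groups compared. The SE is the absolute log2 fold change over the square root of F. CPM are TMM-scaled over all 32 libraries, and per-pair ratios added 0.1 CPM. Some of the fits were also run on simulated counts that held no line or replicate effects and changes larger than most measured here. That check therefore does not cover the replicate effect or small changes. DESeq2 1.42.0 was an alternative, with other scaling, filters, a replicate term, sums per line and libraries left out. Promoters come from RefSeq GRCh38.p14, gene positions and exon overlap from GENCODE 29 (GRCh38).

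In the main fits the replicate numbers were not treated as pairs, because not all 120 correlations of same-numbered deviations were over 0.1. Of these 118 were, with a median of 0.35 and a lowest value of 0.0755, so most same-numbered libraries shared deviations that the main fits left in the error. With a replicate block more passed: in parental cells 53.1% of members and 39.4% of all genes did with tunicamycin, against 37.5% and 25.9% without it. Ratios of same-numbered libraries of a line are given as descriptions only. Libraries of 1 group differed beyond counting noise (chi-square per degree of freedom 1.71 to 26.3). Genes with values in the text are SREBF1, SREBF2, INSIG1, the 4 largest rises and falls with tunicamycin, members called in a knockout or else the one with the lowest p, the lowest p in each response test, and the 2 lowest p among the clones of each knockout. Other genes are named by their list. A further gene of the liver X receptor list is not reported here and was left out of that list's counts.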

Additional observations from a re-analysis of the deposited data

Results flagged for a closer look

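Of 90 sets of libraries (15 named genes in 6 groups), 5 held a library that stood far from the rest of its group. Chance alone gives about 1 in 20. With tunicamycin in IGF2BP2 KO cells HSD17B7 was 12.2 CPM in clone G6 replicate 1, against 15.97 to 18.5 CPM in the other libraries, and TM7SF2 was 22.9 CPM in clone F6 replicate 1, against 11.2 to 14.5 CPM. With tunicamycin in parental cells ELOVL6 was 48.6 CPM in sample 1 replicate 2, against 45.5 to 45.9 CPM, and SCAP was 76.3 CPM in sample 2 replicate 1, against 67.8 to 68.7 CPM. With DMSO in parental cells EBP was 12.7 CPM in sample 2 replicate 1, against 14.5 to 14.7 CPM.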

How the results depend on the processing

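No called member changed direction under any alternative tried. Over all lines 16 of the 25 called members kept their call in all 15 alternatives, and in separate genotypes 11 of 12 (parental), 11 of 15 (IGF2BP3 KO) and 11 of 18 (IGF2BP2 KO) did. With 1 clone left out the IGF2BP2 KO tunicamycin count was 11 to 13, lowest without G6 (34.4% of members against 30.1% of all genes). For IGF2BP3 KO against parental with DMSO, 1 member passed with DESeq2 size factors and with libraries summed per line, and 1 to 2 with 1 clone or parental library left out. With tunicamycin that comparison gave 1 member with the replicate block and 2 with all 32 libraries in one fit. For IGF2BP2 KO with DMSO the fit of all 32 libraries gave 1. Among IGF2BP3 KO clones the replicate block gave 11 members and leaving out a clone 0 to 5. Among IGF2BP2 KO clones leaving out a clone gave 9 to 11, where 9 was 28.1% against 10.6% of all genes without B7 and 11.4% without F6. Leaving out a clone reduces the libraries tested; for the rest the cause was not tested. The replicate block moved no other count of members by over 1.5 times. Genes with few counts, such as CYP51A1, and the spread between replicate numbers, which the main fits did not model, limit what the interaction tests could show.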
